A study of Mus musculus with 9 samples.

Results

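The genes described here are those of 10 proteins at the start and at the brake of Wnt signaling, chosen by symbol from the deposited table of 35275 genes. They are 6 Frizzled receptors (Fzd1, Fzd2, Fzd4, Fzd6, Fzd7 and Fzd8), the co-receptors Lrp5 and Lrp6, and the feedback genes Axin2 and Znrf3, and all 10 were found in the table and passed the filter on low counts that left 13082 genes for testing. RNA-seq was performed on C57Bl/6 mouse embryonic fibroblasts (MEFs), cultured connective tissue cells derived from embryos, in 3 groups of 3 libraries. The groups were MEFs in iso-osmolar medium (300 mOsm), MEFs stressed for 3 hr at 500 mOsm (200 mM sucrose added, low-intensity hyperosmotic stress) and MEFs stressed for 3 hr at 600 mOsm (300 mM sucrose added, high-intensity hyperosmotic stress). No other treatment or genetic change is named for these cultures. The comparisons ask how the expression of these genes differs between stressed and unstressed cells and between the intensities of stress. Nothing states that the libraries of a group came from separate cultures, so the p-values measure only the spread between these libraries, which may be technical.

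Wnt proteins are secreted, lipid-modified ligands that bind the extracellular cysteine-rich domain of Frizzled receptors, which span the membrane repeatedly. In the canonical pathway the ligand brings a Frizzled together with Lrp5 or Lrp6, Dishevelled is recruited, and the complex of Axin, APC, GSK3 and casein kinase that marks β-catenin for destruction is held off, so that β-catenin enters the nucleus and works with factors of the TCF/LEF family. Axin2, a scaffold of the destruction complex, is a widely used direct target of this signal and limits it. Znrf3 is a membrane ubiquitin ligase that removes Frizzled and Lrp6 from the cell surface, and R-spondins, bound by the Lgr receptors, block its action. In fibroblasts and other mesenchymal cells, Frizzled receptors also carry Wnt5a-type signals that do not pass through β-catenin.

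In the positions of the authors' table (mm10), Fzd1 lay at chr5:4753873-4758035 on the minus strand, Fzd2 at chr11:102604396-102608058 on the plus strand and Fzd7 at chr1:59482424-59486955 on the plus strand. Each of these genes, and Fzd8, is annotated with a single exon in its longest transcript, so that reads fall in one uninterrupted exon with the coding sequence and its UTRs. Fzd4 (chr7:89404366-89410110, plus strand) has 2 exons and Fzd6 (chr15:39006280-39038186, plus strand) has 7. Lrp5 (chr19:3584828-3686564) and Lrp6 (chr6:134446476-134566965), both on the minus strand, have 23 exons each. Axin2 (chr11:108920349-108950783, plus strand) has 11 exons and Znrf3 (chr11:5276324-5444847, minus strand) has 9. The Frizzled transcripts are related but distinct in sequence. Their longest alignment was 1669 bases at 79.3% identity between Fzd1 and Fzd2, followed by 1576 bases at 78.9% identity between Fzd2 and Fzd7, and no Frizzled pair shared 100 bases at 95% identity.

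RefSeq promoter windows (GRCm38.p6, from 250 bases before to 50 bases after the annotated start of transcription) were read for only 4 of the 10 genes. No window was read for Fzd8, which like Fzd7 fell at 500 mOsm, so the windows cannot show what these receptors share. The windows of Fzd7, the gene with the smallest p-value between 500 mOsm and iso-osmolar medium, of Fzd1, a close relative of Fzd7 that passed the test in no comparison, and of Axin2, the classical target of the pathway, are shown to let the starts of a receptor that changed, a receptor that did not pass and a feedback gene be read side by side. Capitals mark the letters GGGCGG, the core of the SP1 motif, on either strand (CCGCCC on the other strand), and neighbouring matches in Fzd7 run together. The Fzd7 window is chr1:59481897-59482196 on the plus strand, the Fzd1 window is chr5:4758167-4758466 on the minus strand, and the Axin2 window is chr11:108920099-108920398 on the plus strand, each read 5′ to 3′ on the strand of the gene. Set against the gene positions of the authors' table, the Fzd7 and Fzd1 windows lie wholly upstream of the gene, whereas the Axin2 window spans its start. The start used by RefSeq thus differs from that table for Fzd7 and Fzd1.
Fzd7: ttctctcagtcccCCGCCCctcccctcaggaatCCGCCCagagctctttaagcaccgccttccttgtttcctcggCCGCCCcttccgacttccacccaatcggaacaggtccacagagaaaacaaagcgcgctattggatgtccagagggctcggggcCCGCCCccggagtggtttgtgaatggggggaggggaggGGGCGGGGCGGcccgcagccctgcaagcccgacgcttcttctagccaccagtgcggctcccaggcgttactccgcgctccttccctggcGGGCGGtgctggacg
Fzd1: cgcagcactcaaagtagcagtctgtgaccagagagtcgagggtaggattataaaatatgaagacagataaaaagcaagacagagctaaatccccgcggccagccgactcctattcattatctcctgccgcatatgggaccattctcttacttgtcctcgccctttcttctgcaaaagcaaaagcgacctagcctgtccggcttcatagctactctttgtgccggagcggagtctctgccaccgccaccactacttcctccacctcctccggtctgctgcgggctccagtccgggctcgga
Axin2: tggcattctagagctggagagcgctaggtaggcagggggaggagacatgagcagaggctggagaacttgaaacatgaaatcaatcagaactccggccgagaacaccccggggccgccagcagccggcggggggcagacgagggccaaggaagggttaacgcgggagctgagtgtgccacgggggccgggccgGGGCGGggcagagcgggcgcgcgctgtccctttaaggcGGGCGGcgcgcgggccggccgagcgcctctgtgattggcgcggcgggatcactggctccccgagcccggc
The Fzd7 window held 7 matches to GGGCGG, the Axin2 window 2 and the Fzd1 window none. The GC content was 66.7% in the Fzd7 window, 70.0% in the Axin2 window and 54.0% in the Fzd1 window. The Fzd4 window, which is not printed, held more matches than the Fzd7 window and had a GC content of 72.7%. Like Fzd1, Fzd4 passed the test in no comparison, but it had only 8 to 17 counts per library. Its log2 fold change at 500 mOsm was -0.76, beside -0.88 for Fzd7, so Fzd4 cannot be taken as an unchanged receptor. The part of the matches in the changes was not tested. Neither the TCF/LEF letters CTTTGAT nor the TonEBP core TGGAAA was found on either strand in these 3 windows or in that of Fzd4. As only GGGCGG matched, no overlap between motifs was possible, while neighbouring GGGCGG matches in Fzd7 shared the base at -49. Among all 32851 mouse promoter windows of the same length, 35.7% held GGGCGG, 3.73% held CTTTGAT and 21.4% held TGGAAA, so that the absence of a match says only that these letters are not in these windows.

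Sequencing gave between 21716042 and 26740832 counts on genes per library. Levels within a gene are given as CPM (counts scaled to a common, TMM-adjusted library total), where 3 counts correspond to 0.112 to 0.138 CPM, and levels between genes are given as FPKM, which also divides by the gene length. A gene was taken to rise or fall where the adjusted p of edgeR's quasi-likelihood test was under 0.05. The summed level of 10 fibroblast markers was 20726 to 21863 CPM per library in iso-osmolar medium, 20823 to 21646 CPM at 500 mOsm and 23503 to 25227 CPM at 600 mOsm, and among these markers Fap was at 0 counts in all libraries. The sum rests on the most abundant markers, such as Col1a1 and Vim, and of the 9 markers tested 1 rose and 2 fell at 500 mOsm and 4 rose and 2 fell at 600 mOsm. The markers that fell at both were Col3a1, at 47.5 ± 3.86, 19.7 ± 2.04 and 30.3 ± 1.99 CPM, and Pdgfra, at 37.7 ± 0.908, 23.3 ± 1.08 and 23.6 ± 2.69 CPM, in the order iso-osmolar, 500 and 600 mOsm (SD, n = 3 each). Their part in the results below was not tested.

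By FPKM, Fzd2 was the most abundant of the 10 transcripts in all 9 libraries, and Axin2 and Fzd4 were the least. In iso-osmolar medium the mean FPKM of Fzd2 was 68.0 ± 7.83 (SD, n = 3), followed by Fzd1 at 16.0 ± 0.994, Fzd7 at 12.4 ± 0.441 and Fzd6 at 11.1 ± 0.947 (SD, n = 3 each). The libraries of Fzd7 and Fzd6 overlapped in level, whereas those of Fzd1 lay above both. Lrp5 followed at 7.22 ± 0.549, Znrf3 at 5.80 ± 0.623, Lrp6 at 5.45 ± 0.306 and Fzd8 at 3.54 ± 0.133 (FPKM, SD, n = 3 each). The ranges of Znrf3 and Lrp6 overlapped, and Lrp5 lay above both. Axin2 at 0.204 ± 0.0474 and Fzd4 at 0.181 ± 0.0112 (FPKM, SD, n = 3 each) were more than an order of magnitude below the rest and overlapped each other. The order of the middle genes differed between treatments. At 500 mOsm Fzd7 stood at 6.71 ± 0.267 FPKM, below Lrp5 at 7.55 ± 0.388 FPKM with no overlap, and Fzd8 was at 1.80 ± 0.107 FPKM (SD, n = 3 each). At 600 mOsm Fzd7 (9.51 ± 0.557 FPKM) overlapped Fzd6 (9.19 ± 0.659 FPKM), and Fzd8 (4.15 ± 0.514 FPKM) overlapped Lrp6 (3.88 ± 0.611 FPKM). The authors' table gives Fzd8 a length of 3346 bases and Fzd4 one of 3685 bases, whereas their longest annotated transcripts have 5974 and 6720 bases, so that the FPKM of these receptors against other genes depends on which length is used.

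**Figure D1:**
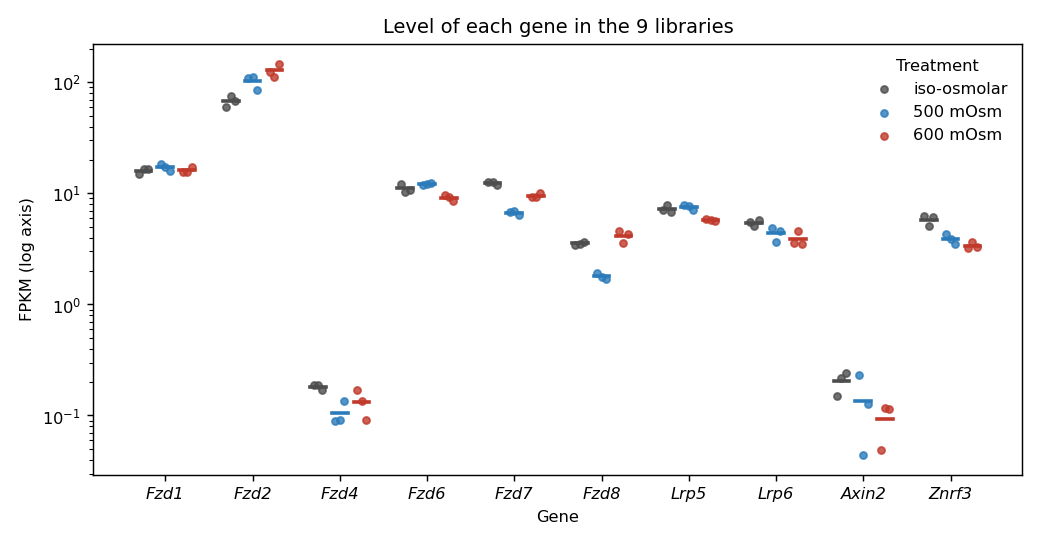
Level of each of the 10 genes in FPKM (vertical log axis) in the 3 treatments. Points are libraries and short lines are the means of 3. Fzd2 lies above all other genes, at 68.0, 102 and 128 FPKM on average, and Fzd4 and Axin2 lie below 0.3 FPKM in every library.

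Fzd2, a receptor used by Wnt5a as well as by canonical ligands, rose at both intensities. Its level was 218, 280 and 246 CPM in the iso-osmolar libraries, 399, 413 and 311 CPM at 500 mOsm, and 456, 409 and 556 CPM at 600 mOsm. Every stressed library lay above every iso-osmolar one, while the libraries of the intensities overlapped each other. The log2 fold change was 0.59 ± 0.126 (SE, adjusted p = 0.00307) at 500 mOsm and 0.93 ± 0.126 (SE, adjusted p = 0.000114) at 600 mOsm, corresponding to 1.51-fold and 1.91-fold. Between 600 and 500 mOsm the difference was 0.34 (95% interval 0.07 to 0.61, adjusted p = 0.0586) and did not pass. This difference passed in the fit of only the 2 groups compared (adjusted p = 0.0478) and without iso-osmolar replicate 1 (0.0463), iso-osmolar replicate 2 (0.0498), 500 mOsm replicate 2 (0.0342) or 600 mOsm replicate 2 (0.0201). In bulk libraries such as these, fewer cells of a type and less RNA per cell cannot be told apart.

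Fzd7 and Fzd8, which like Fzd2 act in canonical signaling, showed another pattern, lowest at 500 mOsm. Fzd7 stood at 56.7, 58.0 and 53.4 CPM in iso-osmolar medium, 30.9, 31.5 and 28.7 CPM at 500 mOsm, and 42.1, 41.2 and 47.3 CPM at 600 mOsm. No group overlapped another, and the 600 mOsm libraries lay in between. Fzd7 fell by 0.88 ± 0.0700 on the log2 scale at 500 mOsm (SE, adjusted p = 1.06e-06), to 0.542 of the iso-osmolar level, and fell by 0.36 ± 0.0689 at 600 mOsm (SE, adjusted p = 0.00144). It was higher at 600 than at 500 mOsm, by 0.52 ± 0.0704 on the log2 scale (SE, adjusted p = 0.000128).

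Fzd8 stood at 11.3, 11.9 and 12.2 CPM in iso-osmolar medium, 6.39, 5.99 and 5.64 CPM at 500 mOsm, and 15.5, 11.9 and 14.7 CPM at 600 mOsm. The 500 mOsm libraries lay apart below both other groups, which overlapped. Fzd8 fell by 0.97 ± 0.114 on the log2 scale at 500 mOsm (SE, adjusted p = 3.21e-05) and was 2.34-fold higher at 600 than at 500 mOsm, a log2 fold change of 1.22 ± 0.113 (SE, adjusted p = 5.58e-06). Against iso-osmolar medium the 600 mOsm value was 0.25 (95% interval 0.02 to 0.48, adjusted p = 0.0891). That value passed without 600 mOsm replicate 2, the lowest of its group, at 0.36 (adjusted p = 0.0161).

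Fzd6, a receptor known mainly from planar polarity and from restraint of canonical signaling, stood at 49.1, 42.7 and 43.3 CPM in iso-osmolar medium, 48.5, 49.5 and 49.6 CPM at 500 mOsm, and 40.2, 37.7 and 35.5 CPM at 600 mOsm. The 600 mOsm libraries lay below all others, and the remaining groups overlapped. Fzd6 was lower at 600 than at 500 mOsm by a log2 fold change of -0.38 ± 0.0696 (SE, adjusted p = 0.00129) and lower than in iso-osmolar medium by -0.25 ± 0.0700 (SE, adjusted p = 0.0141). At 500 mOsm the difference from iso-osmolar medium was 0.13 (95% interval -0.02 to 0.28, adjusted p = 0.204). The call at 600 mOsm against iso-osmolar medium was lost without iso-osmolar replicate 1 (adjusted p = 0.0667) and without 600 mOsm replicate 3 (0.0615), and once GC content and length were corrected for (-0.13, adjusted p = 0.136). The annotated antisense RNA Gm26704 shares 152 exonic bases with Fzd6, and whether the counting used strand is not given in the sources used here.

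Fzd1, a canonical receptor, passed in no comparison. It stood at 61.3, 69.3 and 68.8 CPM in iso-osmolar medium, 76.7, 72.3 and 66.0 CPM at 500 mOsm, and 65.0, 64.6 and 74.7 CPM at 600 mOsm, with all groups overlapping. The 95% intervals of its log2 fold change were -0.06 to 0.27 at 500 mOsm, -0.13 to 0.20 at 600 mOsm and -0.24 to 0.09 between the intensities. Fzd4, the receptor for Norrin as well as Wnt, was near the limit of detection, with 15, 17 and 15 counts in iso-osmolar medium, 8, 9 and 13 counts at 500 mOsm, and 15, 11 and 9 counts at 600 mOsm. All 500 mOsm libraries lay below all iso-osmolar ones, but the log2 fold change of -0.76 (95% interval -1.46 to -0.07, adjusted p = 0.0994) did not pass after adjustment.

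**Figure D2:**
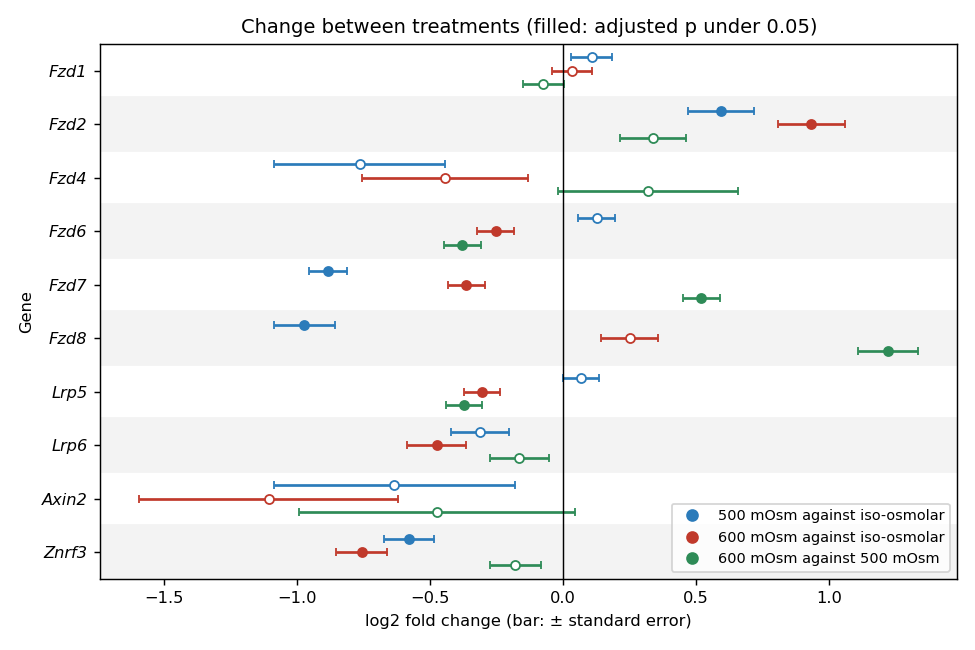
Log2 fold change of each gene (horizontal axis, bars ± standard error) in the 3 comparisons. Filled points have an adjusted p under 0.05 in edgeR's test. Fzd2 lies to the right in both comparisons with iso-osmolar medium, Fzd7 and Fzd8 lie to the left at 500 mOsm and to the right between 600 and 500 mOsm, and the bars of Fzd4 and Axin2 are the widest.

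Both co-receptors fell under high-intensity stress in the uncorrected fit. With the correction for GC content and gene length described below, Lrp5 lost its calls (-0.16, adjusted p = 0.0825 against iso-osmolar medium, and -0.04, adjusted p = 0.646 against 500 mOsm), and Lrp6 passed at a smaller value (-0.22, adjusted p = 0.0174). Lrp5 stood at 62.2, 70.1 and 59.5 CPM in iso-osmolar medium, 69.9, 68.6 and 62.6 CPM at 500 mOsm, and 52.5, 50.7 and 52.1 CPM at 600 mOsm, where every library lay below all libraries of the other groups. Its log2 fold change was -0.30 ± 0.0687 (SE, adjusted p = 0.00447) at 600 mOsm against iso-osmolar medium, -0.37 ± 0.0685 (SE, adjusted p = 0.00133) against 500 mOsm, and 0.07 (95% interval -0.08 to 0.22, adjusted p = 0.516) at 500 mOsm against iso-osmolar medium. Transcripts of Lrp5 also share stretches of 100 to 187 bases at 95% identity or more with other genes, among them Casc4, Kdm5a and Slamf1, so that part of its reads could have been assigned elsewhere. Lrp6 stood at 50.9, 48.4 and 53.2 CPM in iso-osmolar medium, 45.7, 34.4 and 42.8 CPM at 500 mOsm, and 33.7, 42.5 and 33.6 CPM at 600 mOsm. All stressed libraries lay below all iso-osmolar ones, and the intensities overlapped. Lrp6 fell by 0.48 ± 0.110 on the log2 scale at 600 mOsm (SE, adjusted p = 0.00528). At 500 mOsm the value of -0.31 (95% interval -0.55 to -0.07, adjusted p = 0.0511) lay at the threshold, and DESeq2 placed it on the other side (adjusted p = 0.0283), as did the RLE scaling (0.0432), the fit of the 2 groups alone (0.0371) and leaving out 500 mOsm replicate 1 (0.0272), 600 mOsm replicate 2 (0.0206) or 600 mOsm replicate 3 (0.0476).

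Of the feedback genes, Znrf3 fell at both intensities. It stood at 38.8, 32.3 and 38.0 CPM in iso-osmolar medium, 26.9, 24.5 and 21.7 CPM at 500 mOsm, and 20.5, 22.8 and 21.3 CPM at 600 mOsm. Every stressed library lay below every iso-osmolar one, and the intensities overlapped. The log2 fold change was -0.58 ± 0.0939 (SE, adjusted p = 0.000452) at 500 mOsm and -0.76 ± 0.0950 (SE, adjusted p = 6.26e-05) at 600 mOsm, and -0.18 (95% interval -0.39 to 0.03, adjusted p = 0.188) between the intensities. Axin2 had few counts, with 14, 23 and 25 counts in iso-osmolar medium, 24, 5 and 14 counts at 500 mOsm, and 5, 11 and 13 counts at 600 mOsm. The 500 mOsm libraries spread over the whole range, while the 600 mOsm libraries all lay below the iso-osmolar ones. The log2 fold change at 600 mOsm was -1.11 (95% interval -2.17 to -0.05, adjusted p = 0.0965), and at 500 mOsm it was -0.63 (95% interval -1.62 to 0.35, adjusted p = 0.342). At 600 mOsm the value passed in the fit of the 2 groups alone (adjusted p = 0.0399), without 500 mOsm replicate 2 (0.0438) and without the filter on low counts (0.0199). The annotated antisense RNA Gm11670 shares 209 exonic bases with Axin2.

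Counted together, 1 of the 10 genes rose (Fzd2) and 3 fell (Fzd7, Fzd8 and Znrf3) at 500 mOsm against iso-osmolar medium, where 13.2% of all genes tested rose and 14.8% fell. At 600 mOsm against iso-osmolar medium, 1 rose (Fzd2) and 5 fell (Fzd6, Fzd7, Lrp5, Lrp6 and Znrf3), where 15.1% of all genes tested rose and 20.0% fell. Between 600 and 500 mOsm, 2 were higher (Fzd7 and Fzd8) and 2 lower (Fzd6 and Lrp5), where 11.9% of all genes tested were higher and 17.2% lower. Over the 10 genes the log2 fold changes had a median of -0.45 at 500 mOsm, -0.33 at 600 mOsm and -0.12 between the intensities, beside 0.01 over all genes tested in each comparison. The median between the intensities turned to 0.07 without 500 mOsm replicate 1. It turned to 0.11 once GC content and length were corrected for, beside 0.09 over all genes with that correction. The median at 500 mOsm was -0.22 without 500 mOsm replicate 2 and -0.09 in limma on log2(FPKM + 1). Adding 1 shrinks the log2 changes of genes at low FPKM, such as Fzd4 and Axin2, so medians in limma are not on the scale of the others. The median at 600 mOsm was -0.19 both with the correction, beside 0.02 over all genes, and in limma. The comparisons share libraries and are not independent of each other.

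The make-up of the Frizzled transcripts was then described as the share of each receptor gene. Over the 10 Frizzled genes of the mouse, Fzd10 was listed at 0 in all libraries, and the summed FPKM was 115 ± 8.17 for unstressed cells, 144 ± 15.5 at 500 mOsm and 170 ± 19.7 at 600 mOsm (SD, n = 3 each). Fzd2 made up 58.9% ± 2.63 of that sum for unstressed cells, 71.1% ± 2.43 at 500 mOsm and 75.3% ± 1.71 at 600 mOsm (SD, n = 3 each). The groups of Fzd2 shares did not overlap, with 56.2% to 61.5% in iso-osmolar medium, 68.4% to 73.0% at 500 mOsm and 73.9% to 77.2% at 600 mOsm. An exact permutation test of 3 libraries against 3 cannot give a two-sided p below 0.1, so these shares were described and not tested. The share of Fzd7 went from 10.8% ± 0.864 to 4.70% ± 0.342 and 5.63% ± 0.360, and that of Fzd8 from 3.09% ± 0.189 to 1.26% ± 0.0989 and 2.45% ± 0.285, in the same order of treatments (SD, n = 3 each). Fzd1 made up 13.9%, 12.1% and 9.58% on average, and Fzd6 9.71%, 8.49% and 5.48%. With Fzd2 left out, the summed FPKM of the other Frizzled genes was 47.2 ± 0.337, 41.2 ± 1.44 and 41.7 ± 1.88 (SD, n = 3 each), so the larger sum under stress lay in Fzd2. The Frizzled genes outside the 10 chosen were each at or under 2.04% of the sum on average, and Fzd10 was not tested. Of these, Fzd9 fell at both intensities, at 5.37 ± 0.640, 3.41 ± 0.359 and 3.50 ± 1.31 CPM (SD, n = 3 each, adjusted p = 0.0354 and 0.0439 against iso-osmolar medium), with the 600 mOsm libraries overlapping the iso-osmolar ones. Fzd5 rose at 500 mOsm and fell at 600 mOsm, at 6.91 ± 0.390, 9.55 ± 1.04 and 4.36 ± 0.818 CPM (SD, n = 3 each, adjusted p = 0.0200 and 0.00376 against iso-osmolar medium).

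**Figure D3:**
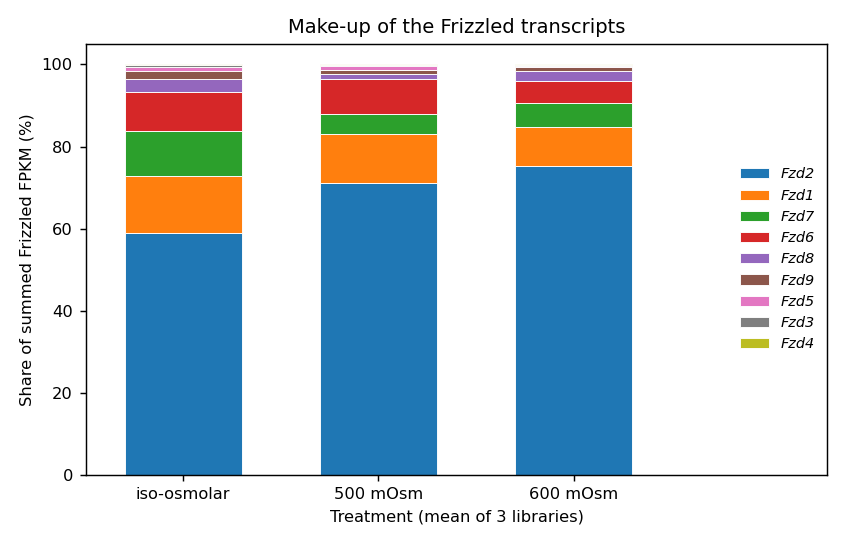
Share of each Frizzled gene in the summed Frizzled FPKM (vertical axis, %), as stacked bars of the mean of 3 libraries per treatment. The Fzd2 share was 58.9%, 71.1% and 75.3% from left to right, and the Fzd7 share was 10.8%, 4.70% and 5.63%.

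The same fit was read for a list of 126 other genes of the Wnt pathway, grouped by role, of which 123 were in the table and 92 could be tested. Of the 92, 17 rose and 19 fell at 500 mOsm, 12 rose and 34 fell at 600 mOsm, and between 600 and 500 mOsm 3 were higher and 29 lower. These are 18.5% and 20.7% of the list at 500 mOsm, beside 13.2% and 14.8% of all genes tested. At 600 mOsm they are 13.0% and 37.0%, beside 15.1% and 20.0%, and between the intensities 3.26% and 31.5%, beside 11.9% and 17.2%. The list was chosen with earlier results of these data known. With so few genes per role, nothing is read from the count of a role below. After the correction for GC content and length described below, the last split was 18 higher and 19 lower, and the others were 14 and 30 at 500 mOsm and 17 and 32 at 600 mOsm. The median log2 fold change over the 92 genes was 0.03, -0.14 and -0.11 in the 3 comparisons, beside 0.01 over all genes tested in each. After the correction it was -0.06, -0.13 and 0.00, beside -0.06, 0.02 and 0.09 over all genes. The genes named below are up to 2 per role, direction and comparison with the largest changes among those whose log2 CPM averaged 1 or more, unless stated.

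Of 10 Wnt ligands tested, 1 rose and 3 fell at each intensity, where 13.2% of all genes rose and 14.8% fell at 500 mOsm and 15.1% rose and 20.0% fell at 600 mOsm. Wnt11, a ligand of planar polarity and heart development, had 11.2, 11.5 and 12.6 CPM in iso-osmolar medium, 2.71, 2.41 and 1.83 CPM at 500 mOsm, and 1.63, 1.43 and 1.62 CPM at 600 mOsm, with no overlap between groups. Its log2 fold change was -2.34 ± 0.139 (SE, adjusted p = 8.61e-08) at 500 mOsm and -2.90 ± 0.148 (SE, adjusted p = 3.55e-08) at 600 mOsm. Wnt7b fell from 8.41 ± 0.666 CPM to 5.47 ± 1.37 and 6.18 ± 0.549 CPM, whereas Wnt10a, the ligand with the highest counts among those named, was at 215 ± 16.3, 177 ± 14.6 and 222 ± 31.0 CPM and was higher at 600 than at 500 mOsm (adjusted p = 0.0183). Wnt5a was lower at 600 than at 500 mOsm, by -0.25 on the log2 scale (adjusted p = 0.0419), a call that ended after the correction (-0.01, adjusted p = 0.917). The ligand that rose at both intensities was Wnt9a, named after its values were seen, at 1.29 CPM in iso-osmolar medium, 2.02 CPM at 500 mOsm and 2.07 CPM at 600 mOsm. Notum, an enzyme that removes the lipid from Wnt and is a feedback gene of the pathway, fell from 17.3 ± 0.918 CPM to 11.3 ± 0.418 CPM at 500 mOsm and 12.5 ± 0.274 CPM at 600 mOsm (adjusted p = 7.83e-05 and 0.000727). Lgr6, a receptor for the R-spondins that act against Znrf3, fell from 4.18 ± 0.478 CPM to 1.86 ± 0.128 and 1.40 ± 0.502 CPM (adjusted p = 0.000759 and 0.000120). Rspo1, one of these R-spondins and named after its values were seen, had 1, 2 and 2 counts in iso-osmolar medium, 33, 24 and 19 counts at 500 mOsm, and 5, 5 and 4 counts at 600 mOsm. Among the other receptors, Ror2, a receptor for Wnt5a, fell from 66.8 ± 3.62 to 53.1 ± 4.42 CPM at 500 mOsm (adjusted p = 0.00365). Its level at 600 mOsm was 56.6 ± 3.39 CPM.

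Of 8 genes of Dishevelled and its regulators tested, 2 rose and 2 fell at each intensity, where 13.2% of all genes rose and 14.8% fell at 500 mOsm and 15.1% rose and 20.0% fell at 600 mOsm. Cxxc5, which binds Dishevelled and inhibits the pathway, fell in steps, at 7.47, 7.17 and 6.71 CPM in iso-osmolar medium, 4.18, 4.03 and 3.09 CPM at 500 mOsm, and 1.63, 1.79 and 1.82 CPM at 600 mOsm. No group overlapped another, and the log2 fold change was -0.92 ± 0.132 (SE, adjusted p = 0.000178) at 500 mOsm and -2.02 ± 0.148 (SE, adjusted p = 5.93e-07) at 600 mOsm. Dvl3 fell at both intensities, from 72.9 to 54.8 and 59.5 CPM, and Dvl1 rose at 500 mOsm from 162 ± 9.60 to 199.7 ± 23.1 CPM (adjusted p = 0.0204, and 0.0563 after the correction for GC content and length). Dact2, which binds Dishevelled, rose from 12.6 ± 1.34 to 16.6 ± 2.69 CPM at 500 mOsm (adjusted p = 0.0356, and 0.0893 after the correction) and to 18.6 ± 1.86 CPM at 600 mOsm (adjusted p = 0.00470, kept after it). Its relative Dact3 rose at 600 mOsm from 13.2 ± 3.38 to 23.9 ± 7.33 CPM (adjusted p = 0.0101, kept after the correction). Of 16 genes of the destruction complex and its partners, 3 rose and 1 fell at 500 mOsm (13.2% and 14.8% over all genes), and 1 rose and 7 fell at 600 mOsm (15.1% and 20.0% over all genes). Frat2, which binds GSK3 and keeps it from β-catenin, stood out at 500 mOsm, with 3.01, 3.85 and 3.39 CPM in iso-osmolar medium, 30.4, 33.0 and 24.5 CPM at 500 mOsm and 4.65, 3.76 and 5.38 CPM at 600 mOsm. That was an 8.54-fold increase at 500 mOsm (adjusted p = 1.67e-08), while the 600 mOsm libraries overlapped the iso-osmolar ones. Gsk3b, the kinase itself, was at 70.4 ± 1.35 CPM in iso-osmolar medium and 73.5 ± 3.65 CPM at 500 mOsm and fell to 47.5 ± 2.91 CPM at 600 mOsm (adjusted p = 1.57e-05). Fbxw11, which recognises marked β-catenin, fell from 143 ± 4.32 to 100.2 ± 6.05 CPM at 600 mOsm (adjusted p = 5.27e-05). Apc2, a relative of APC, rose from 1.96 ± 0.0908 to 3.48 ± 0.745 and 4.34 ± 0.354 CPM (adjusted p = 0.00362 and 0.000311). The casein kinase Csnk1e fell at 500 mOsm from 92.9 ± 2.21 to 73.3 ± 3.46 CPM (adjusted p = 0.000225) and stood lower still at 600 mOsm, at 66.2 ± 0.999 CPM.

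Of 16 nuclear factors tested, 2 rose and 5 fell at 500 mOsm (13.2% and 14.8% over all genes), and 1 rose and 8 fell at 600 mOsm (15.1% and 20.0% over all genes). Lef1, itself a target of the pathway, fell from 6.47, 6.84 and 6.87 CPM in iso-osmolar medium to 1.31, 1.85 and 1.11 CPM at 500 mOsm and 1.84, 2.42 and 1.47 CPM at 600 mOsm. The stressed libraries lay apart below the unstressed ones, with log2 fold changes of -2.24 ± 0.196 (SE, adjusted p = 2.54e-06) and -1.82 ± 0.190 (SE, adjusted p = 1.33e-05). Tcf7 fell from 9.22 ± 1.24 CPM to 6.94 ± 0.400 and 4.72 ± 0.561 CPM (adjusted p = 0.0253 and 0.000110). Bcl9l, a co-activator of β-catenin, rose to 233 ± 21.4 CPM at 500 mOsm from 145 ± 13.6 CPM and was at 134 ± 9.58 CPM at 600 mOsm. Aes, a short relative of the Groucho co-repressors, rose from 211 ± 14.1 to 252 ± 9.46 and 265 ± 14.2 CPM (adjusted p = 0.00547 and 0.000906), the former call ending once GC content and length were corrected for (0.272). Between 600 and 500 mOsm, Tcf7l2 was lower (8.47 ± 0.393 beside 13.1 ± 1.21 CPM, adjusted p = 0.00130) and Pygo2 higher (195 ± 6.41 beside 174 ± 11.0 CPM, adjusted p = 0.0461). The Pygo2 call was lost with RLE factors (adjusted p = 0.0515) and kept after the correction for GC content and length.

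Of 10 further target genes tested, 3 rose and 4 fell at 500 mOsm (13.2% and 14.8% over all genes), and 2 rose and 6 fell at 600 mOsm (15.1% and 20.0% over all genes). Myc was at 309 ± 4.51 CPM in iso-osmolar medium and 319 ± 23.9 CPM at 500 mOsm and fell to 116 ± 4.63 CPM at 600 mOsm (adjusted p = 4.99e-09 against iso-osmolar medium), Cd44 fell at both intensities from 390 ± 36.2 to 263 ± 18.6 and 264 ± 23.2 CPM, and Ephb3 rose at 600 mOsm from 18.7 ± 1.79 to 35.2 ± 4.21 CPM. Jag1, a Notch ligand, fell from 10.4 ± 0.271 to 5.24 ± 0.873 CPM at 600 mOsm (adjusted p = 3.72e-05). At 500 mOsm it already stood lower than in iso-osmolar medium, at 7.48 ± 0.0832 CPM. Wisp2 rose at both intensities, from 96.5 ± 9.04 to 125 ± 9.76 and 136 ± 10.8 CPM. Its relative Wisp1 fell at 500 mOsm from 33.4 ± 2.16 to 23.0 ± 1.96 CPM and stood at 26.5 ± 0.447 CPM at 600 mOsm. Ephb2 rose at 500 mOsm by 0.17 on the log2 scale (adjusted p = 0.0192), which turned to -0.05 once GC content and length were corrected for. Of 12 planar polarity genes, 2 rose and 0 fell at 500 mOsm (13.2% and 14.8% over all genes), and 3 rose and 3 fell at 600 mOsm (15.1% and 20.0% over all genes). Scrib rose at 600 mOsm from 184 ± 11.3 to 210.5 ± 14.7 CPM, and its level at 500 mOsm was 209.9 ± 15.3 CPM. Fuz fell at 600 mOsm from 5.83 ± 1.41 to 3.64 ± 0.212 CPM. Prickle2 fell at 600 mOsm from 7.62 ± 1.03 to 5.06 ± 0.702 CPM (adjusted p = 0.00459, and 0.0502 after the correction). Celsr2, an adhesion receptor of that pathway, rose at both intensities, at 0.675 ± 0.276, 3.32 ± 0.453 and 1.69 ± 0.233 CPM. Only 4 of 15 listed secreted or membrane inhibitors had enough counts to be tested, among them Kremen1, a receptor for Dkk1, at 34.7 ± 2.22, 45.3 ± 1.55 and 33.9 ± 1.45 CPM and higher at 500 mOsm (adjusted p = 0.000686). Apcdd1, another inhibitor, was lower at 600 than at 500 mOsm (8.46 ± 0.233 beside 10.6 ± 0.234 CPM, adjusted p = 0.0231, and 0.0572 after the correction).

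**Figure D4:**
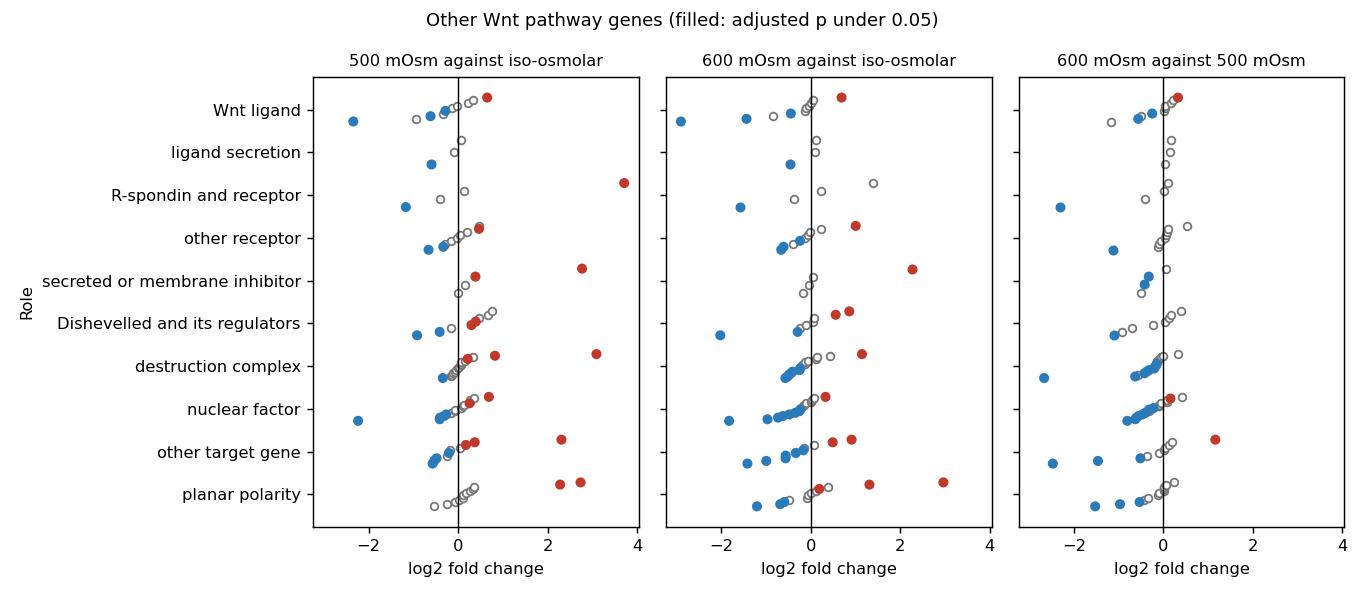
Log2 fold change (horizontal axis) of 92 other Wnt pathway genes in the 3 comparisons, 1 point a gene, in rows by role. Filled points have an adjusted p under 0.05, red higher and blue lower. At 600 against 500 mOsm 29 filled points lie on the left and 3 on the right, a split that was 19 and 18 after the correction for GC content and length.

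Among 10381 other genes whose log2 CPM averaged 1 or more, those whose log2 CPM followed a given gene most closely over the 9 libraries were named for the gene with the smallest p of each comparison, as a description over libraries that share 3 treatments. Fzd7 was followed by Zfp408 (r = 0.992), Mfsd2a (r = 0.992) and Sema4c (r = 0.990). Znrf3 was followed by Map4k2 (r = 0.982), Acsbg1 (r = 0.978) and Chd7 (r = 0.976). Fzd8 was followed by Map3k14 (r = 0.994), Arhgef39 (r = 0.991) and Klhdc3 (r = 0.990). None of these is a gene of the Wnt list.

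A measured property of the libraries moved with some of these genes. The slope of a library's log2 levels on the GC content of the transcripts, relative to the mean of all libraries, was -0.116, 0.006 and -0.123 (log2 per 10 percentage points of GC) in the iso-osmolar libraries, -0.001, 0.159 and 0.005 at 500 mOsm, and 0.047, -0.093 and 0.115 at 600 mOsm. Within each treatment, the library with the highest slope had the highest level of Fzd2 (GC content 56.6%) and the lowest level of Lrp6 (GC content 46.0%). Taken as deviations from the treatment mean, the r with the slope was 0.784 for Fzd2 and -0.922 for Lrp6, the extremes of the 10 genes. It was 0.482 for Fzd1, 0.758 for Fzd7, 0.532 for Fzd8, 0.573 for Lrp5, -0.296 for Fzd4 and -0.286 for Fzd6. Axin2 (GC content 54.6%) was at -0.463 and Znrf3 (50.7%) at -0.460, so GC content did not order all 10. In an alternative chosen after seeing the data, each library was corrected for GC content and gene length by splines. The correction also removes any treatment effect that follows these properties, and it evens the mean log2 level of the libraries, which shifts all genes together. With the correction, the median log2 fold change over all genes was -0.06 at 500 mOsm, 0.02 at 600 mOsm and 0.09 between the intensities. The part of this shift in the changed calls was not tested apart from the correction itself. With it the calls of Fzd2, Fzd7, Fzd8 and Znrf3 given above remained, with log2 fold changes at 500 mOsm of 0.44 for Fzd2, -0.99 for Fzd7, -1.06 for Fzd8 and -0.65 for Znrf3, and at 600 mOsm of 0.89 for Fzd2, -0.30 for Fzd7 and -0.57 for Znrf3. Between 600 and 500 mOsm, Fzd7 was at 0.69 and Fzd8 at 1.35. The difference of Fzd2 between the intensities, at 0.45, passed with it (adjusted p = 0.000937), and so did Lrp6 at 500 mOsm (-0.36, adjusted p = 0.000519) and Fzd8 at 600 mOsm against iso-osmolar medium (0.29, adjusted p = 0.0325). As given above, Lrp5 lost its calls and Fzd6 that at 600 mOsm against iso-osmolar medium, while Fzd6 kept that against 500 mOsm (-0.25, adjusted p = 0.00486). Over all genes the correction turned the split of calls from 1728 higher and 1931 lower to 1578 and 3535 at 500 mOsm, and from 1560 and 2250 to 3572 and 1751 between 600 and 500 mOsm, against 1977 and 2617 turned to 2307 and 2572 at 600 mOsm.

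**Figure D5:**
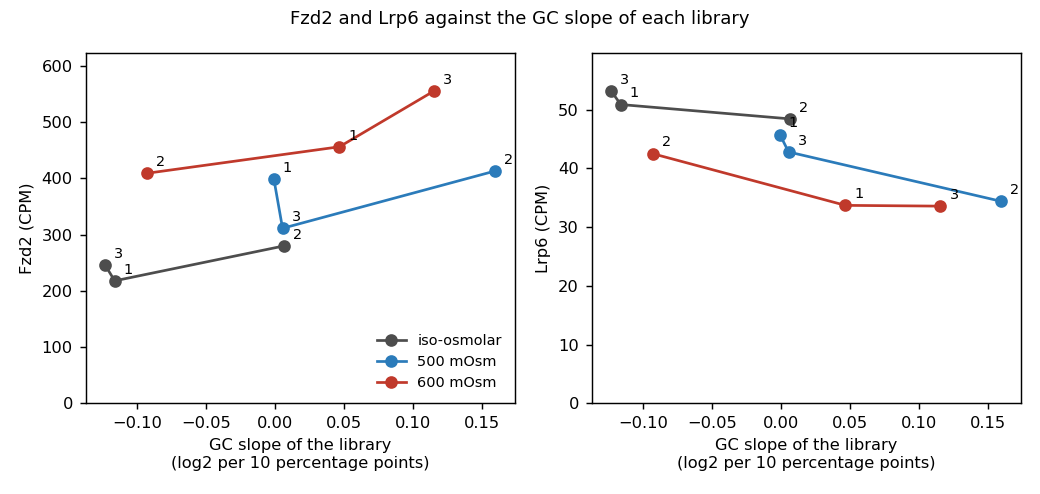
CPM of Fzd2 (left) and Lrp6 (right) against the GC slope of each library (horizontal axis, log2 per 10 percentage points of GC). Points are libraries, numbers are replicates and lines join the libraries of a treatment. Within each treatment the library with the highest slope is the highest for Fzd2 and the lowest for Lrp6, while all stressed libraries lie above the iso-osmolar ones for Fzd2 and below them for Lrp6.

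Markers of other cell types were low but not level across the treatments. The summed level of 6 endothelial markers was 0.860 to 1.06 CPM in iso-osmolar medium, 12.2 to 13.7 CPM at 500 mOsm and 2.18 to 3.45 CPM at 600 mOsm, mostly from Pecam1 at 0.279, 11.1 and 1.67 CPM on average. The 6 epithelial markers summed to 1.43 to 1.76 CPM, 5.00 to 6.39 CPM and 1.61 to 2.34 CPM, and Cdh1 among them rose at 500 mOsm to 3.47 CPM. At 500 mOsm, 2 of 3 endothelial and 1 of 3 epithelial markers tested rose and 0 fell, where 13.2% of all genes rose. Other markers stayed near their level, such as Cdh5 at 0.554, 0.568 and 0.751 CPM and Krt19 at 1.30, 1.47 and 1.57 CPM on average. Epcam had at most 1 count in any library. The 5 haematopoietic markers in the table summed to 15.7 to 19.9, 21.7 to 34.2 and 18.3 to 29.1 CPM, the 6 neural markers to 11.5 to 14.0, 16.5 to 20.9 and 14.4 to 18.6 CPM, and the 6 muscle markers to 2.87 to 3.15, 2.83 to 3.32 and 2.78 to 3.33 CPM, with Myog at 0 counts in all libraries. More genes had at least 1 count at 500 mOsm (18920 to 19222) and at 600 mOsm (17846 to 18031) than in iso-osmolar medium (16452 to 16871). The part of these marker changes or of this wider detection in the changes of Fzd7, Fzd8, Rspo1 and Frat2, all of which stood apart at 500 mOsm, was not tested.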

How the data were processed

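Poly-T selected mRNA of 9 libraries was sequenced as paired-end reads of 150 bases. The submitters' processing notes name CASAVA 1.8, STAR and the build mm10, and the counting tool and its use of strand are not given in the sources used here. The authors deposited raw counts per gene and FPKM, which equalled the count divided by the authors' gene length and the library total. The authors' own fold changes and p-values were not used. Only the counts entered the tests. Genes were filtered by filterByExpr, scaled by TMM (factors 0.974 to 1.013) and tested by the quasi-likelihood test of edgeR 4.0.16 (R 4.3.3), with all 9 libraries in 1 fit and Benjamini-Hochberg adjustment over the 13082 genes tested (threshold 0.05). The common biological coefficient of variation was 0.0756. Standard errors of the log2 fold changes between 600 and 500 mOsm had a median of 0.0995. The floor of 3 counts covers counting error only. The fit was first run on simulated counts with 200 changed genes. Gene models were those of GENCODE on mm10, and blastn 2.17.0 was used to find sequence shared between transcripts (at least 100 bases at 95% identity).

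All 10 chosen genes were named. Of the Wnt list, up to 2 genes per role and direction with the largest change among those called whose log2 CPM averaged 1 or more could be named, and for likeness the 3 genes with the highest Pearson's r. The 10 genes and the lists were chosen with earlier results of these data known. The alternatives were RLE factors, the library size alone, no filter, DESeq2 1.42.0, fits of 2 groups at a time, a replicate block, limma 3.58.1 on log2(FPKM + 1) and each library left out. The correction for GC content and gene length (splines with 4 degrees of freedom, 13022 genes) was added after seeing the data. It also evened the mean log2 level of the libraries.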

Additional observations from a re-analysis of the deposited data

How the results depend on the processing

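The total numbers of the 10 genes and of the Wnt list called, both directions together, stayed within 1.5 times those given under all alternatives, at 4 to 5, 5 to 7 and 4 to 5 of the 10 genes and at 30 to 49, 35 to 49 and 26 to 37 of the Wnt genes (500 mOsm and 600 mOsm against iso-osmolar medium, and 600 against 500 mOsm). The split by direction moved further, with Wnt genes higher between 600 and 500 mOsm going from 3 to 18 and lower ones from 29 to 19 once GC content and length were corrected for, and lower ones at 500 mOsm from 19 to 30. Wnt genes higher at 600 mOsm went from 12 to 7 in limma, and those higher between the intensities from 3 to 1 without 500 mOsm replicate 3 or 600 mOsm replicate 3. Of the 10 genes, the correction took those higher at 600 mOsm from 1 to 2, those lower there from 5 to 3, and those lower between the intensities from 2 to 1, and without 600 mOsm replicate 2 those higher at 600 mOsm were 2. Of 510 recomputed log2 fold changes of the 10 genes, 477 kept direction and side of the threshold, 20 passed it, 5 lost it and 8 changed sign. None of those that changed sign had passed the test. Once GC content and length were corrected for, Fzd1 turned to -0.031 and Lrp5 to -0.11 at 500 mOsm against iso-osmolar medium, and between 600 and 500 mOsm Fzd1 turned to 0.069, Lrp6 to 0.14 and Znrf3 to 0.076. With each library left out, Fzd1 at 600 mOsm against iso-osmolar medium ranged from -0.039 to 0.071, and Axin2 between the intensities from -0.89 to 0.16. The cause was not tested. Without the filter on low counts, Fzd2 between the intensities (adjusted p = 5.49e-08), Lrp6 at 500 mOsm (0.000429) and Axin2 at 600 mOsm against iso-osmolar medium (0.0199) also passed. The counts of these genes were the same as in the main edgeR fit, where the adjusted p was 0.0586, 0.0511 and 0.0965. The unfiltered fit differed in holding 23419 genes in place of 13082, so its smaller values are not added evidence. The Fzd2 libraries of the intensities overlapped in either case.

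The replicate numbers did not pair the libraries. The deviations of same-numbered libraries correlated with a mean r of -0.0847 over 9 pairs (-0.241 to 0.156), and 0 of the 9 libraries correlated best with their own number. With the replicate block, 4, 6 and 4 of the 10 genes and 31, 41 and 28 Wnt genes were called. Axin2 and Fzd4 had few counts, at 5 to 25 and 8 to 17 per library.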
